A study of Mus musculus with 148 samples.

Results

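Ngp, Lcn2, Camp, Ltf, Mmp8, Mmp9, Retnlg and Padi4 are 8 genes of the neutrophil granule programme, and they were taken by name from the 52634 genes of the deposited count matrices. Their transcripts were followed in single immune cells of mouse lungs and mammary tumors, across 5 neutrophil subtypes, 4 monocyte subtypes and 8 kinds of tissue. The cells came from 63 mouse and tissue samples of 27 female C57BL/6 mice that carry PA-GFP, a green fluorescent protein that becomes visible after exposure to light. Single cells were sorted into plates and sequenced by SPID-seq, a plate-based method that counts unique molecular identifiers (UMIs), so that each count stands for 1 captured RNA molecule. A level is given here as counts per 1000000 (CPM) of the UMIs summed over the cells of 1 label or lineage in 1 mouse and tissue, and a sum was used if it held 10 or more cells.

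The animals differed in their tumor history. Normal lungs came from 3 mice without tumor. In the other groups, EO771-tdTomato breast cancer cells, a mouse mammary line that glows red, had been injected into the mammary gland of 8-week-old mice. Pre-MET lungs came from 3 mice that still carried the primary tumor, and Primary samples were the tumors of these 3 mice and of 1 further mouse. In the remaining mice the tumor was removed 3 weeks after injection. Relapse-free lungs came from 6 such mice in which no metastasis developed. Mice with lung metastases gave Distal normal tissue (14 samples), which held no visible tumor cells, and MET tissue (13 samples), which held a lesion. Photoactivation then marked the MET Core (13 samples) or the MET Invasive margin (7 samples) before sorting. Cells were gated as CD31- and CD45+, or as CD31- and GFP+ after photoactivation. In the comparisons with Relapse-free lungs, some plates did not have the CD45+ gate. All tumors derive from 1 cell line, so the groups stand for 1 model of the disease. Several tissues often came from the same mouse. All 3 Normal mice lie in a sequencing batch that holds no other group, so batch and group cannot be told apart in any comparison with Normal. By the main batch of each neutrophil sum, Pre-MET lungs shared none with the Primary tumors or the Distal normal tissue compared with them. The same limit therefore holds in those comparisons.

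Neutrophils make their granules in waves while they mature in the bone marrow. Azurophil granules, with Mpo and Elane, are filled first, secondary granules with Ltf, Camp, Ngp and Lcn2 follow, and gelatinase granules with Mmp9 come last. Transcription of each set largely ceases before the cell leaves the marrow, so secondary granule transcripts are known as marks of immature neutrophils. Ngp encodes a cystatin-like granule protein and Camp a cathelicidin that is cut into an antimicrobial peptide. Ltf encodes lactoferrin, which binds iron, and Lcn2 encodes lipocalin 2, which binds the siderophores by which bacteria take up iron. Mmp8 encodes neutrophil collagenase and Mmp9 encodes gelatinase B. Retnlg encodes a resistin-like secreted protein, and Padi4 encodes the enzyme that turns arginine to citrulline in histones when chromatin is released as extracellular traps.

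Of the 8 genes, 4 lie on mouse chromosome 9 in GRCm38, the assembly named mm10 by the submitters. In the GENCODE annotation of that assembly, Camp (ENSMUSG00000038357) is a gene of 4 exons at chr9:109847379-109849617 on the minus strand. Ngp (ENSMUSG00000032484), also with 4 exons, lies at chr9:110419747-110423012 on the plus strand. Ltf (ENSMUSG00000032496), with 17 exons, lies at chr9:111019271-111042767 on the plus strand. The gap from Camp to Ngp measures 570129 bases and that from Ngp to Ltf 596258 bases. Mmp8 (ENSMUSG00000005800) lies far from them at chr9:7558456-7568485 on the plus strand. Lcn2 (ENSMUSG00000026822) lies at chr2:32384633-32388252 on the minus strand and Mmp9 (ENSMUSG00000017737) at chr2:164940780-164955850 on the plus strand. Retnlg (ENSMUSG00000022651) lies at chr16:48872621-48874496 on the plus strand and Padi4 (ENSMUSG00000025330) at chr4:140745865-140774236 on the minus strand. All are annotated as protein coding, and none overlaps another annotated gene on either strand.

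The stretches just before 5 of the RefSeq gene starts are shown because these genes divide into those read almost exclusively in 1 neutrophil label (Camp, Ltf and, in large part, Ngp) and those that reach further labels (Lcn2, Retnlg). Each is the 250 bases before the RefSeq start on GRCm38.p6, written 5′ to 3′ on the strand of the gene. Capitals mark matches to the C/EBP letters TTNNGNAA (TTNCNNAA on the other strand) or to the PU.1 letters, both of which stand for factors that act in granulocytes. The PU.1 letters searched were GAGGAA on either strand, and when they lie on the other strand the sequence as written here reads TTCCTC. RefSeq gave such a stretch for 7 of the 8 genes. Its starts are not those of the GENCODE spans given above. The Lcn2 stretch lies wholly inside its GENCODE span, those of Ngp, Camp and Ltf run into theirs, and that of Retnlg ends before its own.
Ngp, chr9:110419558-110419807, plus strand: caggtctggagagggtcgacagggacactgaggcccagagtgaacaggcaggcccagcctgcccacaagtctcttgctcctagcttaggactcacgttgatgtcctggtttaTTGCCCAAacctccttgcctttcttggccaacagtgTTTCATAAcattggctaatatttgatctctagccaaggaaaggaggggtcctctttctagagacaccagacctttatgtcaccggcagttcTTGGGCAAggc
Camp, chr9:109849457-109849706, minus strand: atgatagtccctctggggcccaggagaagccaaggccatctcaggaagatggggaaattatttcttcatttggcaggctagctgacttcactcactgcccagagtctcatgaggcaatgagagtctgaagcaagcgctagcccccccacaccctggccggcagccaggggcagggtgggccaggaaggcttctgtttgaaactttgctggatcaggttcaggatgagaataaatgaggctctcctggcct
Ltf, chr9:111019042-111019291, plus strand: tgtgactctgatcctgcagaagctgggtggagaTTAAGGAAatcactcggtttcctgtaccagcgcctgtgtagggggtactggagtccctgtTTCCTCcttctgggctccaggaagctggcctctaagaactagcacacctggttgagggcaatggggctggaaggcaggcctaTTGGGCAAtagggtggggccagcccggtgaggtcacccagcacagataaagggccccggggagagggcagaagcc
Lcn2, chr2:32387740-32387989, minus strand: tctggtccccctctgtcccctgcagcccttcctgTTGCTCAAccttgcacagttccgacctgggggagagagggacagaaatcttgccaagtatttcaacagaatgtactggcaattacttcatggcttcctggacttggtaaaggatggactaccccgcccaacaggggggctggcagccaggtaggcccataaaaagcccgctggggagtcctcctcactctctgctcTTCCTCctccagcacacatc
Retnlg, chr16:48872358-48872607, plus strand: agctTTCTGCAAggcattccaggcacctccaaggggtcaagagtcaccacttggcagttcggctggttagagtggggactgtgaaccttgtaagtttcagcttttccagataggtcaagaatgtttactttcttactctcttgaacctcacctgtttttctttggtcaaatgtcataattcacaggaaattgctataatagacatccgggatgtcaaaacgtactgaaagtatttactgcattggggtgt
The C/EBP letters occurred in 5 of the 7 stretches (Ngp, with 3 matches, Ltf and Mmp8 with 2 each, Lcn2 and Retnlg with 1 each), and 36.8% of 32851 mouse promoters of the same length hold at least 1 match. The PU.1 letters occurred in 3 of the 7 (Lcn2, Ltf and Mmp8), against 23.3% of all promoters. Camp and Padi4 held neither, so that Camp differs from its neighbours Ngp and Ltf in these letters. A match is a match of letters and not a measured binding site.

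The study assigned 3972 cells to 5 neutrophil labels, which are named after a leading gene: Neut_Camp (98 cells), Neut_Lcn2 (1604), Neut_Ifit3 (639), Neut_Ptgs2 (1492) and Neut_PMN-MDSC (139), the last after the term for granulocytic suppressor cells. The labels were made by clustering on expression, these genes included, so the differences between labels are a description with no test. In all, 78 sums of a neutrophil label held 10 or more cells. The levels of the neutrophil markers S100a8 and S100a9 were high in 4 labels, with S100a8 between 64230 CPM in Neut_Ptgs2 and 262800 CPM in Neut_Camp. In Neut_PMN-MDSC, S100a8 stood at 11820 CPM and Ly6g, which marks mouse neutrophils, was at 0 in all 5 sums. UMIs of S100a8 count in the total, so a high S100a8 level lowers the CPM of every other gene of the label.

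Neut_Camp was the label in which Ngp, Camp, Ltf and Lcn2 stood apart. Its 4 sums of 10 or more cells held 51 of the 98 cells of the label. They came from Relapse-free mouse 7, Distal normal tissue of mice 26 and 37, and the margin of mouse 26. They are therefore not 4 separate mice, and none is from Normal, Pre-MET, MET or MET Core. Ngp measured 13570, 25030, 26630 and 33810 CPM in these 4 sums, with a mean of 24760 ± 8377 CPM (SD, n = 4). The next label, Neut_Lcn2, had 577.5 ± 812.2 CPM (n = 24), and its highest sum held 3281 CPM, so the groups did not overlap. Camp measured 11530, 17130, 22660 and 31210 CPM in Neut_Camp. No sum of another neutrophil label passed 251.8 CPM, and the ratio of means to the next label, Neut_Ifit3, was 548-fold. Camp thus had the steepest fall of the 8 genes. Ltf measured 3533, 5512, 6959 and 10370 CPM in Neut_Camp, while the other labels had means of 1.57 to 56.4 CPM. Lcn2 was graded rather than confined: it measured 6594, 6960, 7438 and 9082 CPM in Neut_Camp, 1657 ± 903.5 CPM in Neut_Lcn2 (n = 24), 654.8 ± 462.6 CPM in Neut_Ifit3 (n = 16) and 424.8 ± 239.2 CPM in Neut_Ptgs2 (n = 29). Beyond the step from Neut_Camp, neighbours in this order overlapped for each of the 4 genes.

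Mmp8, Mmp9 and Retnlg had another order. Mmp8 had 2933 ± 370 CPM in Neut_Camp and 1996 ± 802 CPM in Neut_Lcn2, and these overlapped. It was lower in Neut_Ifit3 (701.3 ± 405.9 CPM) and Neut_Ptgs2 (513.3 ± 372.4 CPM). Among Mmp8, Mmp9 and Retnlg, the flattest was Mmp9. It went from 1949 ± 623.9 CPM in Neut_Camp over 1309 ± 377 CPM in Neut_Lcn2 to 921.6 ± 259.3 CPM in Neut_Ifit3 and 915.1 ± 479.6 CPM in Neut_Ptgs2. Retnlg was the 1 gene of the 8 whose highest mean lay in Neut_Lcn2, at 19150 ± 6412 CPM, above 15280 ± 4639 CPM in Neut_Camp with overlap. With sums of 5 or more cells admitted, the order turned, to 18910 CPM in Neut_Camp (n = 7) and 18570 CPM in Neut_Lcn2 (n = 32). It was at 8185 ± 3965 CPM in Neut_Ifit3 and 3643 ± 2077 CPM in Neut_Ptgs2. Padi4 had means of 123.6 to 251.3 CPM in the 4 labels other than Neut_PMN-MDSC, and its sums overlapped between each pair of neighbours.

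Neut_PMN-MDSC held little of any of the 8 genes. Padi4 was at 0 in all 5 sums of 10 or more cells. Mmp8 was at 0 in 4 of them and reached 51.3 CPM in the fifth. Retnlg measured 0, 92.8, 96.4, 282.3 and 1161 CPM there, so 4 of the 5 sums lay below the lowest Neut_Ptgs2 sum, at 642.4 CPM. Mmp9 was the member most evenly seen, at 201.7 ± 193.7 CPM with 1 sum at 0.

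**Figure D1:**
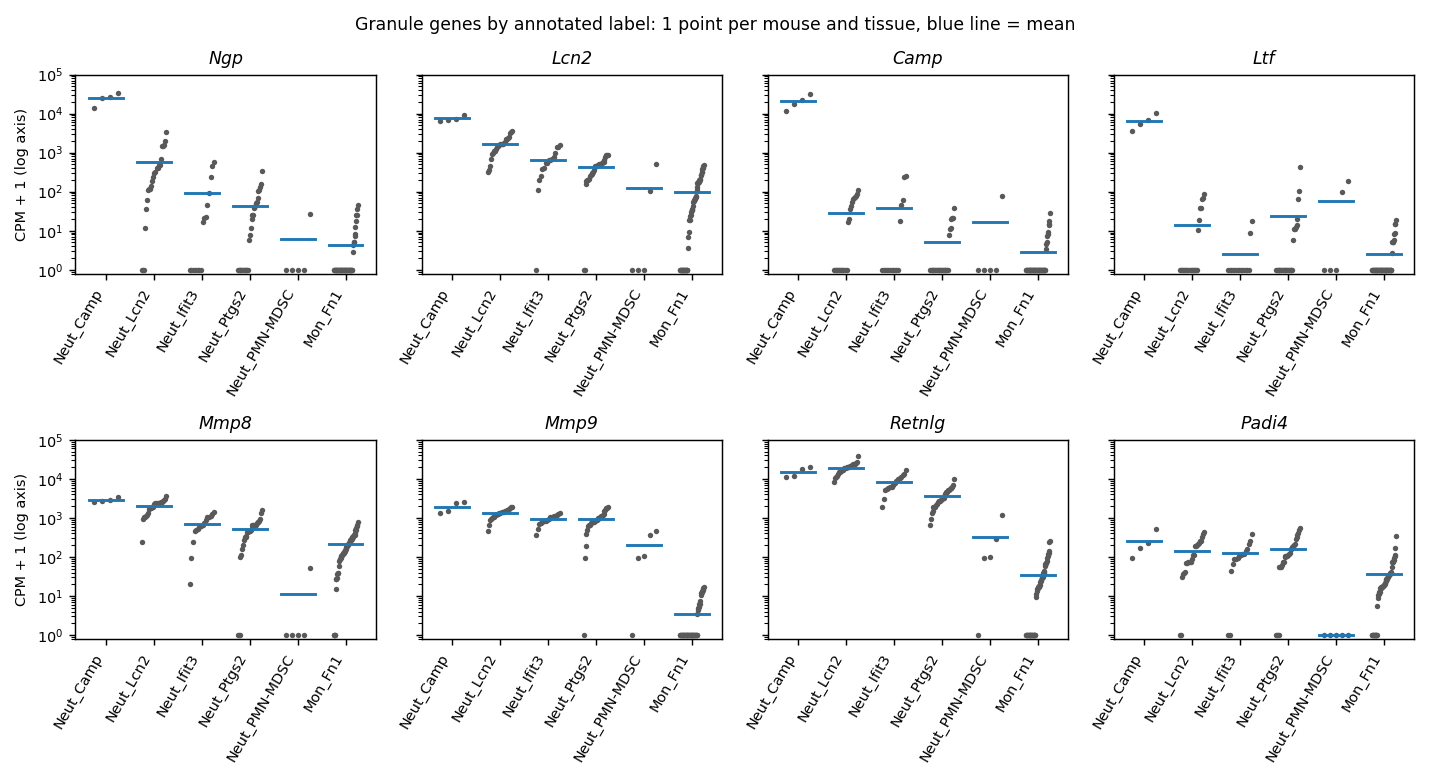
Level of each gene (CPM + 1, log axis) in the 5 neutrophil labels and in Mon_Fn1 monocytes, with 1 point per mouse and tissue sum of 10 or more cells, sorted within a label, and the mean as a blue line. Ngp, Camp, Ltf and Lcn2 in Neut_Camp lie above all sums of the other labels, whereas Retnlg, Mmp8 and Mmp9 overlap between Neut_Camp and Neut_Lcn2.

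Counting molecules shows the same division in other terms. Neut_Camp made up 2.47% of the neutrophils. These 98 cells held 6108 of 6274 Camp UMIs (97.4%), 1980 of 2083 Ltf UMIs (95.1%) and 6873 of 9525 Ngp UMIs (72.2%). They held 22.2% of the Lcn2 UMIs, but only 8.52% for Mmp8, 8.78% for Mmp9, 5.98% for Retnlg and 10.5% for Padi4. Neut_Lcn2, with 40.4% of the cells, held 72.9% of the Mmp8, 72.7% of the Retnlg, 60.7% of the Lcn2 and 26.6% of the Ngp UMIs. For Camp and Ltf the Neut_Lcn2 share was 2.12% and 3.17%. Mouse 37 alone held 1823 of the 2529 Ngp UMIs in Neut_Lcn2, from 495 cells over its tissues. Without that mouse the Neut_Lcn2 share was 13.2% for Ngp, 0.913% for Camp and 1.2% for Ltf. Cells labelled Neut_Camp were deeper, with a median of 1718 UMIs, against 1076 in Neut_Lcn2, 886 in Neut_Ifit3, 944.5 in Neut_Ptgs2 and 906 in Neut_PMN-MDSC, which raises their share of molecules.

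**Figure D2:**
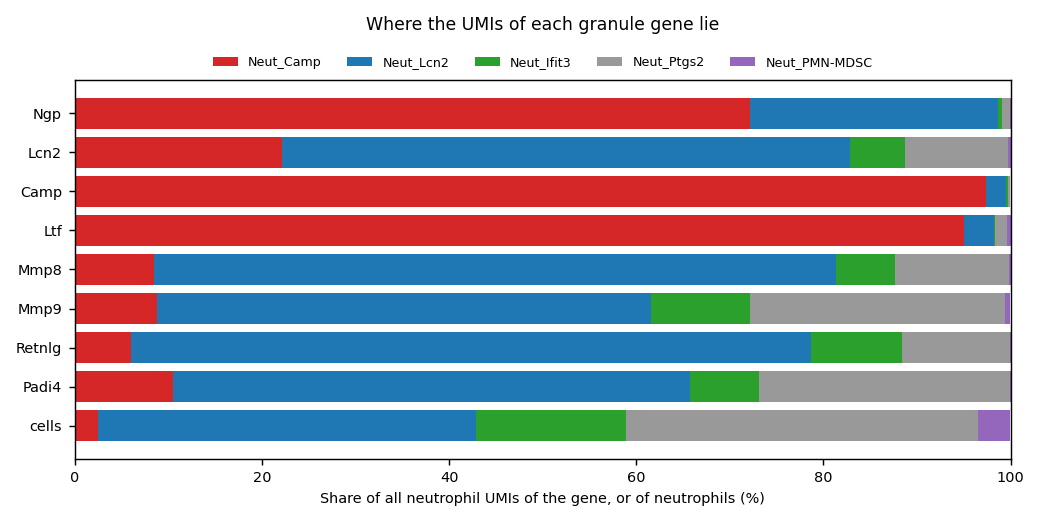
Share (%) of all neutrophil UMIs of each gene that lies in each neutrophil label, with the share of neutrophils in the lowest bar. The red part, Neut_Camp, spans 97.4% of the Camp and 95.1% of the Ltf molecules but 2.47% of the cells.

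Single cells of the label carried the genes together. All 98 Neut_Camp cells had a UMI of Ngp, 96 had Lcn2, 89 had Camp and 82 had Ltf. Ngp, Camp and Ltf were all present in 77 of the 98, and in 7 of the 3874 other neutrophils. After each cell was thinned to 500 UMIs, a Camp UMI remained in 84.7% of Neut_Camp cells (exact binomial 95% interval 76.0% to 91.2%) and in 1.75% of Neut_Lcn2 cells (1.16% to 2.51%). T, NK and B cells, taken as background, had a Camp UMI in 0.307% of cells (0.210% to 0.434%), with a median depth of 999 UMIs. Camp in Neut_Ptgs2, at 0.335% (0.109% to 0.780%), was at this background. Ngp stood at 17.3% in Neut_Lcn2 (15.5% to 19.2%; without mouse 37, 11.7%, 9.89% to 13.8%), 1.61% in Neut_Ptgs2 (1.03% to 2.38%) and 0.346% in lymphocytes (0.242% to 0.478%). Intervals cover counting error only. The 98 cells were spread over 25 of the 59 samples that held a neutrophil, and no well name occurred on more than 1 plate.

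Genes of other lists, chosen with earlier results of these data known, are given by the label of their highest mean. The share of all genes highest in each label is not given, so these counts are a description. The means of Neut_Camp and Neut_PMN-MDSC rest on only 4 and 5 sums. Of 10 other secondary granule genes, 8 had their highest mean in Neut_Camp. Among them were Cd177, a surface protein stored in these granules (1308 ± 339.8 CPM against 206.8 in Neut_Lcn2), Cybb, the oxidase subunit of their membrane (780.4 ± 381.4 against 82.7 CPM), Chil3 (2219 ± 1869 against 92.2 CPM) and Lyz2, lysozyme (8654 ± 3340 against 3729 CPM). Of 8 genes listed with the azurophil granules, not all of which are granule contents, 1 (Bpi) was at 0 in every label. Of the others, 3 had their highest mean in Neut_Camp (Serpinb1a, Prtn3 and Ms4a3), 3 in Neut_Lcn2 and 1 in Neut_Ptgs2. Mpo, Elane, Ctsg, Prss57 and Bpi were at 0 in all 4 Neut_Camp sums, where the deepest sum held 62651 UMIs, and Prtn3, proteinase 3, stood at 51.2 ± 59.6 CPM. Serpinb1a, an inhibitor of neutrophil serine proteases, had 705.3 ± 178.8 CPM in Neut_Camp and 38.6 CPM in Neut_Lcn2.

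Of 9 genes of mature neutrophils, 5 had their highest mean in Neut_Ptgs2, 3 in Neut_PMN-MDSC and 1, Ly6g, in Neut_Camp. The G-CSF receptor gene Csf3r had 136 ± 159.7 CPM in Neut_Camp and 2149 CPM in Neut_Ptgs2, Il1b had 745.5 ± 348 against 18810 CPM, and Cxcr2, the receptor for marrow exit, had 598 ± 291.5 against 1677 CPM. Ly6g stood at 555.2 ± 278.8 CPM in Neut_Camp. Of 8 granulocyte transcription factors, 6 had their highest mean in Neut_Ptgs2, among them Cebpb (1633 ± 625.9 CPM, and 311.9 in Neut_Camp) and Spi1, which encodes PU.1 (634.3 ± 447.4 and 430.9 CPM). The other two, Klf5 and Cebpe, the factor of secondary granule genes, were highest in Neut_Camp, Cebpe at 58.0 ± 79.3 CPM from 8 UMIs. Of 8 cell cycle genes, 5 had their highest mean in Neut_PMN-MDSC, 2 in Neut_Ptgs2 and 1, Top2a, in Neut_Camp, where it rests on 1 UMI. Mki67, Stmn1 and Birc5 were at 0 in the 4 Neut_Camp sums, and H2afz stood at 137.1 ± 66.0 CPM.

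By their pattern over 212 neutrophil and monocyte label sums, the genes nearest to Ngp among 4443 compared were Itgb2l (Pearson r = 0.76 of log2(CPM + 10)), Camp (0.76), Lcn2 (0.70), Wfdc21 (0.70) and Ceacam10 (0.68). Those nearest to Retnlg were Mmp9 (0.93), S100a9 (0.93), Cxcr2 (0.92), S100a8 (0.92) and Lrg1 (0.90). Within the 78 neutrophil sums, Camp and Ltf went together (0.76), as did Retnlg and Mmp8 (0.82), while Ltf and Retnlg did not (0.03). Retnlg and Mmp9 had 0.73 there. The 212 sums pool both lineages, so the contrast between neutrophils and monocytes enters the higher values. All these values describe sums that share mice, plates and depth.

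Levels in all neutrophils of a sample were then compared between tissues. In a sum over a lineage, more cells of a label and more RNA per cell both raise a level, so the make-up by label is given beside the values. Sums of 42 samples held 10 or more neutrophils (11 to 492 cells, 7421 to 918670 UMIs). Fold changes are log2 values with their standard error from edgeR's quasi-likelihood test, and p-values are adjusted over all genes tested by Benjamini-Hochberg. In 7 comparisons, 2 calls were made for the 8 genes, both in 1 comparison.

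In Normal lungs, Camp was read in 1 of 3 mice. Mouse 2 had 10380 CPM of Camp, 7194 CPM of Ngp and 2778 CPM of Ltf, and without its 2 Neut_Camp cells all 3 levels were 0, while mice 1 and 3 had no UMI of Camp or Ltf. Such dependence on single cells recurred. In the MET Core of mouse 17, 1 cell held 1388 of 1452 Camp UMIs (95.6%). A Neut_Camp cell was present in 22 of the 42 sums used, and in the other 20 Camp did not pass 134.8 CPM. In 10 of the 25 sums with a Camp UMI, 1 cell held all of them.

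Between Normal and Pre-MET lungs, Retnlg measured 2791, 4301 and 4357 CPM in Normal and 4811, 9572 and 9902 CPM in Pre-MET mice. The groups did not overlap, and the log2 difference was 1.05 ± 0.36, but it did not pass the test (edgeR adjusted p = 0.395). Here and below, a lack of overlap between tissues is a description, since the share of all genes without overlap is not given. None of the 4 members with enough counts was called, by edgeR or by DESeq2, and 1 had an unadjusted p under 0.05. The background was 1.06% of 377 genes. Without Pre-MET mouse 8, Retnlg passed (a log2 difference of 1.5, edgeR adjusted p = 0.0402), as did 7 of 559 genes. Lcn2 stood at 937.8 ± 1446 CPM in Normal, with mouse 2 at 2603 CPM, and at 798.7 ± 282.5 CPM in Pre-MET (n = 3 each). Its log2 difference of -0.45 ± 0.89 turned to 2.67 without Normal mouse 2. Mmp8 (875.1 ± 695.2 and 607.5 ± 142.2 CPM) and Mmp9 (890.8 ± 591.3 and 941.3 ± 255.8 CPM) did not pass either, and Ngp, Camp, Ltf and Padi4 had too few counts to be tested. With no filter on low counts, Camp (-3.69), Ngp (-2.34) and Retnlg (1.58) were called by edgeR, among 10 of 9147 genes, but all 355 Camp UMIs of Normal lungs lay in the 2 Neut_Camp cells of mouse 2, without which its Ngp level was 0 too. Among the neutrophils, the share labelled Neut_Lcn2 was 15.1 ± 1.14% in Normal and 34.5 ± 8.68% in Pre-MET lungs, and the part of this shift in the Retnlg level was not tested. Markers of other cells in these sums moved too. The 6 T and NK cell markers summed to 146.2 to 210.8 CPM in Normal and 0 to 57.9 CPM in Pre-MET, and the 6 macrophage markers to 42.2 to 965.0 CPM (median 673.7) and 14.5 to 81.5 CPM (median 28.3). Of the macrophage markers, only Chil3, which is also among the secondary granule genes listed, was read in Pre-MET. The part of these markers in the Retnlg level was not tested either.

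The same 3 Normal samples served against Relapse-free lungs. There Retnlg measured 4950, 6424, 7341, 9816 and 10510 CPM, all above Normal, with a log2 difference of 1.18 ± 0.39 (edgeR adjusted p = 0.322). All 8 members were tested and none was called by either tool, with 1 at an unadjusted p under 0.05, on a background of 0.0577% of 1733 genes. Camp lay at 3460 ± 5994 CPM in Normal (n = 3) and 1410 ± 1472 CPM in Relapse-free lungs (n = 5), a log2 difference of -1.30 ± 0.73 (edgeR adjusted p = 0.644). Without Normal mouse 2, its level in Normal was 0, and Camp, Ltf and Ngp were then called higher in Relapse-free lungs, 3 of the 5 genes called among 3213. Ngp, Ltf, Lcn2, Mmp8, Mmp9 and Padi4 overlapped between the groups. The Neut_Lcn2 share was 21.0 ± 13.1% in Relapse-free lungs.

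Distal normal tissue of mice with metastases had the highest mean Retnlg level. It ranged from 5509 CPM in mouse 36 to 22650 CPM in mouse 26, with a median of 13460 CPM over 9 sums. Against Relapse-free lungs, the log2 difference of Retnlg was 0.86 ± 0.38 (edgeR adjusted p = 0.611), that of Lcn2 1.14 ± 0.40 (adjusted p = 0.457) and that of Mmp8 0.78 ± 0.41 (adjusted p = 0.713). Lcn2 ranged from 422.6 to 1242 CPM (median 684.9) in Relapse-free lungs and from 824.3 to 3457 CPM (median 1419) in Distal normal tissue, so the groups overlapped. Camp, Ltf, Mmp9 and Padi4 overlapped as well. No member of 8 was called by edgeR or DESeq2, and 2 had an unadjusted p under 0.05, on a background of 0.04% of 2503 genes. The Neut_Lcn2 share was 54.0 ± 26.6% in Distal normal tissue. The 6 T and NK cell markers in these neutrophil sums ranged from 91.3 to 593.1 CPM (median 389.2) in Relapse-free lungs and from 0 to 190.3 CPM (median 40.6) in Distal normal tissue, and their part in the differences was not tested.

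Outside Neut_Camp, Ngp was uneven between mice. With all neutrophils, its log2 difference from Relapse-free lungs to Distal normal tissue was 0.35 ± 0.68 (edgeR adjusted p = 0.967). The levels without Neut_Camp cells, a setting chosen after the data were seen, are a description with no test, since the label was made with Ngp among its genes and all its cells held Ngp. The Relapse-free sums then measured 15.6, 24.0, 42.1, 92.1 and 130.3 CPM. The Distal normal tissue sums ranged from 0 to 1741 CPM with a median of 134.6 CPM, and the groups overlapped. Mice 26, 34 and 37 stood far above the others, at 1448, 808.9 and 1741 CPM, while the remaining 6 did not pass 216.4 CPM. The MET tissue of mice 26 and 37 stood as high, at 1388 and 2104 CPM, as did the margin of mouse 26 (1388 CPM). Their MET Core measured 409.6 CPM, from 7 UMIs in 18 cells, and 279.3 CPM, from 38 UMIs in 94 cells. Mouse 36 had 122.9 CPM in Distal normal tissue and 0 in MET, against 1890 CPM in its MET Core, a sum of 17 cells.

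Against Pre-MET lungs, Distal normal tissue had log2 differences of 1.37 ± 0.53 for Mmp8 (edgeR adjusted p = 0.293), 1.11 ± 0.48 for Lcn2 (adjusted p = 0.36) and 2.32 ± 1.19 for Ngp (adjusted p = 0.446). No member of 8 was called by edgeR or DESeq2, and 2 had an unadjusted p under 0.05, on a background of 0.569% of 1055 genes. All 8 genes overlapped between the groups, and Camp, Ltf, Mmp9, Retnlg and Padi4 did not pass. Mmp8 measured 448.4, 651.7 and 722.4 CPM in Pre-MET and 419.8 to 3227 CPM in Distal normal tissue. The 6 monocyte markers in these sums ranged from 396.6 to 570.8 CPM in Pre-MET and from 536.2 to 2191 CPM (median 834.5) in Distal normal tissue, and the 6 macrophage markers from 14.5 to 81.5 and from 0 to 511.6 CPM (median 139.4). In Pre-MET the macrophage sum was Chil3 alone. The part of these markers was not tested. The Distal normal tissue samples are those of the comparison with Relapse-free lungs, and the Pre-MET samples those of the comparison with Normal.

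Primary tumors held few neutrophils. Only mice 10 and 38 gave sums, of 13 cells each, and Ly6g was at 0 in both. The 5 neutrophil markers summed to 18600 and 59440 CPM there, against 157200 to 231500 CPM in Pre-MET lungs, and 6 monocyte markers to 775.0 and 1589 CPM against 396.6 to 570.8 CPM. The 6 macrophage markers summed to 90.8 and 387.5 CPM against 14.5 to 81.5 CPM, and the 3 B cell markers to 0 in both against 28.3 to 40.8 CPM. The macrophage sums held only C1qa and C1qb in Primary and only Chil3 in Pre-MET, so they rest on different genes. The part of these markers in the results was not tested. In mice 10 and 38, Mmp8 measured 45.4 and 0 CPM, from 1 UMI in all, and Retnlg 2634 and 581.3 CPM, all below the Pre-MET lungs. Both genes fell, by 4.56 ± 1.14 and 2.48 ± 0.67 on the log2 scale (edgeR adjusted p = 0.0317 and 0.0407). These were 2 of the 4 members tested, on a background of 14.5% of 429 genes. Mmp8 passed the filter on low counts through the Pre-MET sums alone. With no filter, both genes were called, among 55 of 8727 genes. The fold of Mmp8 rests on that 1 UMI among 37506, against 107 among 164177 in Pre-MET lungs, a ratio of 24.4 with an exact 95% counting interval of 4.29 to 974.4. Mmp9 had a log2 difference of -1.19 ± 0.77 and Lcn2 of -0.62 ± 1.03, and neither passed. Leaving out either Primary mouse leaves a lone Primary sum, assumed to vary as the other samples do. Lcn2 was then called without mouse 10, where the remaining sum held none and the size depends on the prior count, and Mmp9 without mouse 38, where the difference of Lcn2 turned to 0.13, with 110 of 1211 and 117 of 1259 genes called. Ngp, Camp, Ltf and Padi4 had too few counts to be tested. Other granule and cytosol genes fell as well. Of 4 other secondary granule genes tested, Lyz2 fell by 3.33 on the log2 scale, with Cyba and Hp. Of 3 further gelatinase granule genes, the antibacterial Pglyrp1 and Anxa1 fell, and of 5 S100 and stefin genes S100a8, S100a9 and S100a11 did. Of 7 mature neutrophil genes, Ccrl2, a chemerin receptor, rose by 3.18 on the log2 scale (edgeR adjusted p = 0.016). In the Primary sums used, no cell was labelled Neut_Lcn2 or Neut_Camp. The Neut_PMN-MDSC share there was 23.1 ± 21.8%, against 0.498 ± 0.862% in Pre-MET lungs. The Primary samples of mice 8 and 9, with fewer than 10 cells, held 2 and 1 cells labelled Neut_Lcn2. The calls of Mmp8 and Retnlg were both lost without Pre-MET mouse 9, without Pre-MET mouse 10, and when sums of 5 or more cells were admitted. In that last setting the log2 differences were -1.23 and -0.74. It adds Primary mouse 8 (8 cells), with 0 CPM of Mmp8 and 7241 CPM of Retnlg. It also adds Primary mouse 9 (6 cells), with 1091 and 12540 CPM, above all Pre-MET sums. The call of Mmp8 was also lost without Pre-MET mouse 8, and that of Retnlg without TMM scaling (-2.30, edgeR adjusted p = 0.0507). Over all genes, 14 of 376 were called without Pre-MET mouse 9, 0 of 373 without mouse 10, 23 of 722 without mouse 8, and 19 of 319 with sums of 5 or more cells.

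In mice with metastases, MET tissue did not differ detectably from Distal normal tissue. Retnlg ranged from 3029 to 20670 CPM (median 11440, n = 9) in MET, and its log2 difference was -0.16 ± 0.36 (edgeR adjusted p = 0.993). The differences were -0.46 ± 0.47 for Lcn2, -0.29 ± 0.40 for Mmp8 and -0.11 ± 0.24 for Mmp9. Ngp and Padi4 overlapped too, and Camp and Ltf had too few counts to be tested. No member of 6 tested was called by edgeR or DESeq2, none had an unadjusted p under 0.05, and 0 of 715 genes were called (a background of 0.0%). With the mice as a replicate block, over 6 pairs, 0 members were called. Between the MET Invasive margin and the MET Core, Retnlg had a log2 difference of -0.40 ± 0.62 (edgeR adjusted p = 0.858), which turned to 0.30 without margin mouse 26, and Lcn2 of -1.03 ± 0.73 (adjusted p = 0.628). Mmp8 and Mmp9 overlapped as well, and Ngp, Camp, Ltf and Padi4 were not tested. No member of 4 was called or had an unadjusted p under 0.05, on a background of 0.463% of 216 genes. The MET Core held a Neut_PMN-MDSC share of 19.99 ± 13.2%, against 0.467 ± 1.04% at the margin.

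Within a label, tissues were compared where sums allowed. From Distal normal tissue to MET, no member was called in Neut_Lcn2 (5 tested, 0.0% of 371 genes called), Neut_Ifit3 (4 tested, 0.0% of 275) or Neut_Ptgs2 (4 tested, 0.0% of 485), and no member had an unadjusted p under 0.05 in edgeR. Retnlg in Neut_Lcn2 had 19160 ± 5349 CPM in Distal normal tissue (n = 6) and 21380 ± 8943 CPM in MET (n = 7), a log2 difference of 0.17 ± 0.31 (edgeR adjusted p = 0.996). In Neut_Ptgs2 its difference was -0.67 ± 0.34 (edgeR adjusted p = 0.989). Lcn2 in Neut_Lcn2 differed by -0.22 ± 0.40. From Normal to Pre-MET within Neut_Ptgs2, neither member tested was called or had an unadjusted p under 0.05, on a background of 1.51% of 199 genes.

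The level of a tissue was set beside what its mix of labels would give. If each label is set to its mean CPM over all tissues and only the mix differs, Distal normal tissue would have 13230 ± 4160 CPM of Retnlg, and 13530 ± 5194 CPM were measured. MET tissue would have 10560 ± 3954 CPM and had 11680 ± 5244 CPM. Normal lungs had 3816 ± 888.3 CPM measured against 6739 ± 1427 CPM, lower in all 3 mice. Primary tumors had 1607 ± 1451 CPM against 3294 ± 47.7 CPM. Pre-MET lungs had 8095 ± 2849 against 11350 ± 1703 CPM, lower in all 3 mice. The other genes had other ratios. Mmp8 had 607.5 CPM measured against 1196 CPM in Pre-MET lungs, lower in all 3 mice. In the Primary sums it had 22.7 CPM, from 1 UMI, against 451.8 CPM. In the other tissues its measured mean was 0.94 to 1.12 of that from the mix. In Distal normal tissue, the measured mean over that from the mix was 1.02 for Retnlg and 1.03 for Mmp9, 1.12 for Mmp8, 1.3 for Lcn2, 1.48 for Ngp, 2.01 for Camp, 2.24 for Ltf and 2.49 for Padi4. Single sums set the higher ones: without mouse 28 that of Camp was 1.22, and without mouse 31 that of Padi4 was 1.47, while with 1 mouse left out that of Ltf stayed between 1.8 and 2.83, that of Ngp between 1.27 and 1.54 and that of Retnlg between 0.98 and 1.07. The label means include the measured samples, so these values are a description.

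**Figure D3:**
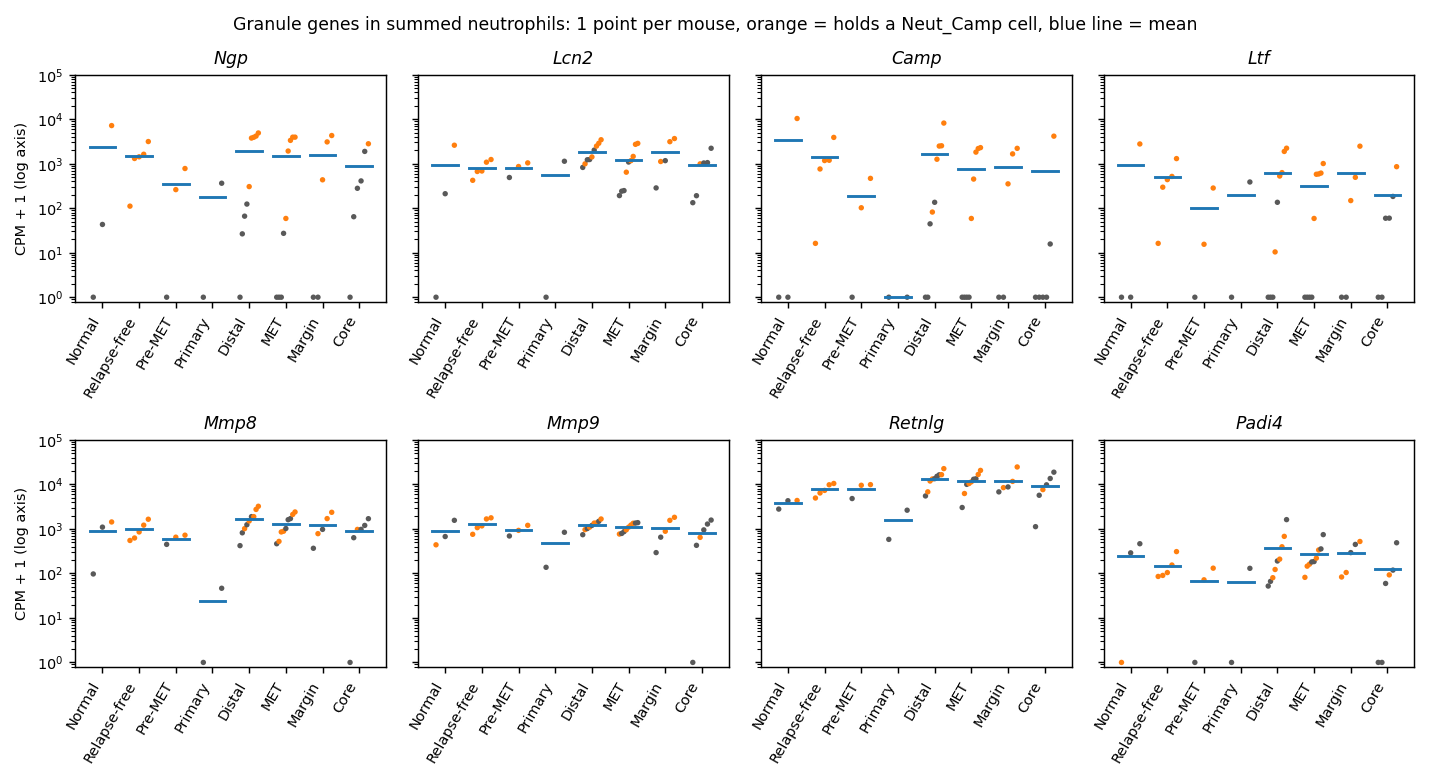
Level of each gene (CPM + 1, log axis) in all neutrophils of a sample, by tissue, with 1 point per mouse, sorted within a tissue, and the mean as a blue line. Orange points hold at least 1 Neut_Camp cell, and nearly all high values of Camp, Ltf and Ngp are orange, whereas Retnlg and Mmp9 show no such split.

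Monocytes read a subset of the genes. The study named 4 monocyte labels, of which Mon_Fn1 held 3053 cells, and 134 sums of a monocyte label held 10 or more cells. In Mon_Fn1, Mmp8 stood at 209.2 ± 181 CPM (n = 54 sums), Lcn2 at 95.6 ± 131.9 CPM and Padi4 at 35.1 ± 54.1 CPM. Camp, Ltf, Ngp and Mmp9 had means of 1.47 to 3.40 CPM. Mmp8 was lower in Mon_Thbs1 (80.2 ± 99.1 CPM), Mon_MHC-II (33.5 ± 69.6 CPM) and Mon_Ace (32.3 ± 62.5 CPM), with overlap. The T, NK and B cells of the 63 samples serve as background: Mmp8 6.55 ± 17.1, Lcn2 6.15 ± 11.8, Padi4 4.13 ± 6.86 and Retnlg 44.8 ± 71.5 CPM. The 592 empty wells held 12 UMIs of Retnlg, 5 of Lcn2, 3 of Camp and 1 each of Mmp8 and Mmp9 among 8490.

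Mmp8 lay above the lymphocytes of the same sample in the monocytes of 57 of 62 samples, Padi4 in 43 and Lcn2 in 40. Retnlg lay above in 24 and below in 30, and Ngp above in 9 and below in 12. After thinning to 500 UMIs, 8.25% of Mon_Fn1 cells (7.30% to 9.29%) had a Mmp8 UMI, against 0.355% of lymphocytes (0.25% to 0.49%), and 18.9% had one before thinning, at a median of 1503 UMIs. For Lcn2 the thinned shares were 3.77% (3.12% to 4.50%) and 0.327% (0.226% to 0.456%), and for Padi4 1.08% (0.745% to 1.52%) and 0.231% (0.148% to 0.343%). For Retnlg they were 2.82% and 2.48% with overlapping intervals, so by this share Retnlg in Mon_Fn1 was at background. Retnlg and Mmp8 UMIs stood at 7.43 to 1 in neutrophils, 7.29 to 1 in lymphocytes and 0.293 to 1 in Mon_Fn1. The ratio was 0.202 in Mon_Thbs1, 0.249 in Mon_MHC-II and 1.77 in Mon_Ace, so it was lower in all 4 monocyte labels than in neutrophils and lymphocytes.

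Mmp8 was the 1 member called in monocytes. It measured 6.93, 12.0 and 20.6 CPM in the monocytes of the 3 Normal mice, from 8 UMIs in all, and 78.4, 87.9 and 134.3 CPM in Pre-MET lungs, from 140 UMIs. The groups did not overlap, and it rose by 2.77 ± 0.60 on the log2 scale (edgeR adjusted p = 0.0138). The background was 4.32% of 4953 genes, and Mmp8 was the only member with enough counts to be tested. It passed the filter on low counts through the Pre-MET sums alone, since the Normal sums held too few. With no filter, Mmp8 was called as well, among 261 of 18135 genes. Without Pre-MET mouse 10 it was not called (2.58, edgeR adjusted p = 0.103), when 83 of 4809 genes were. The share of Mon_Fn1 among monocytes was 23.9 ± 0.944% in Normal and 69.6 ± 5.65% in Pre-MET lungs. Within Mon_Fn1, Mmp8 still measured 26.9, 27.4 and 36.9 CPM in Normal, from 5 UMIs, and 103.8, 106.4 and 160.1 CPM in Pre-MET mice. The 5 neutrophil markers in these monocytes summed to 286.8 to 665.2 CPM in Normal and 1038 to 1986 CPM in Pre-MET lungs, with Cxcr2 at 0 in Normal. The 6 macrophage markers, of which Chil3 is 1, summed to 277.2 to 645.4 CPM in Normal and 1290 to 2424 CPM in Pre-MET, and the 6 T and NK cell markers to 127.4 to 239.0 and 32.1 to 58.6 CPM. The part of these markers in the Mmp8 level was not tested. Of the other lists, Chil3 and Hp (of 7 other secondary granule genes tested), Anxa1 (of 3) and S100a8 and S100a11 (of 3) rose in the same comparison. Of 5 cell cycle genes tested, Birc5 and H2afz rose, of 7 mature neutrophil genes Cxcr4 fell, by 1.36 on the log2 scale (edgeR adjusted p = 0.0493), and of 4 transcription factors none was called. Nkg7, the 1 T and NK cell marker tested in these monocytes, fell as well.

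Across tissues, Mmp8 in Mon_Fn1 was lowest in Normal lungs (30.4 ± 5.65 CPM, n = 3) and then measured 82.2 ± 64.7 CPM in Relapse-free (n = 6), 123.4 ± 31.8 in Pre-MET (n = 3) and 155.8 ± 107.2 in Primary (n = 4). It reached 287.4 ± 180.5 CPM in Distal normal tissue (n = 13), 224.9 ± 176 in MET (n = 13), 261.6 ± 206 at the margin (n = 5) and 250.4 ± 261.9 in the Core (n = 7). Neighbours in the order of means overlapped, Normal and Relapse-free included, since 1 or more Relapse-free sums held no UMI. Lcn2 in Mon_Fn1 was at 0 in the 3 Normal sums and at 136.7 ± 143.8 CPM in Distal normal tissue, from 0 to 490.2 CPM. From Distal normal tissue to MET, Mmp8 in all monocytes had a log2 difference of -0.54 ± 0.38 (edgeR adjusted p = 0.817) and was the 1 member tested, with no call by DESeq2 either and no unadjusted p under 0.05, on a background of 1.33% of 2098 genes. From the margin to the Core no member had enough counts, and 0.195% of 1025 genes were called.

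**Figure D4:**
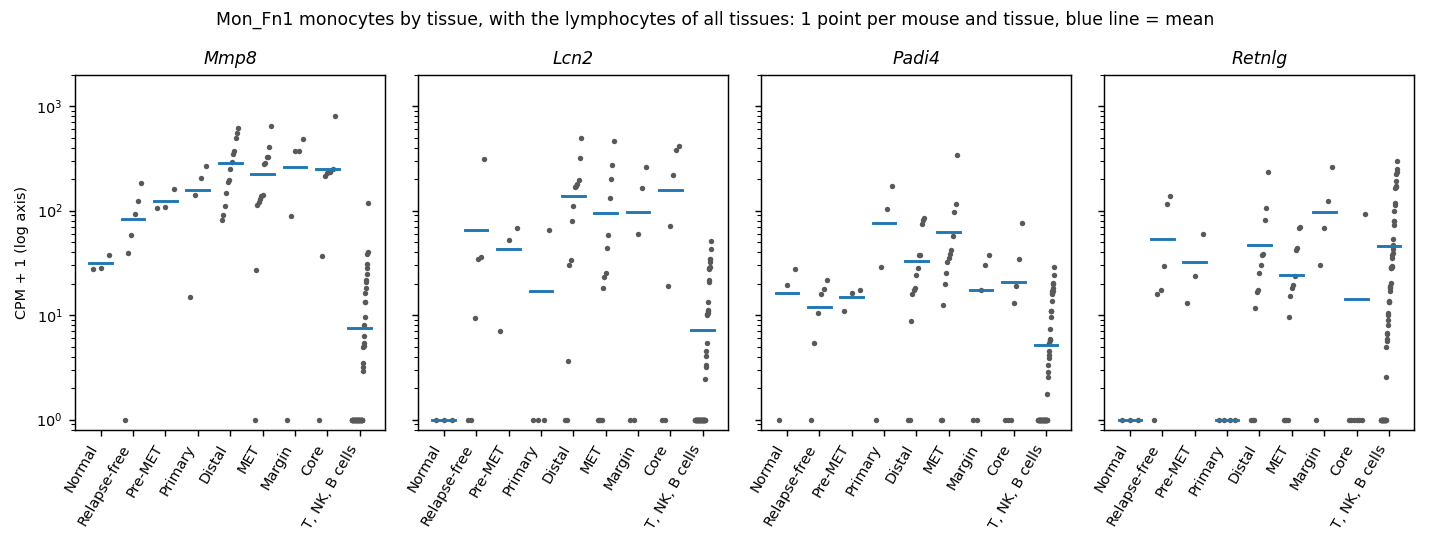
Level of Mmp8, Lcn2, Padi4 and Retnlg (CPM + 1, log axis) in Mon_Fn1 monocytes by tissue and in the T, NK and B cells of all tissues, with 1 point per mouse and tissue sum of 10 or more cells, sorted within a column, and the mean as a blue line. Mmp8 lies at 26.9 to 36.9 CPM in Normal and at 103.8 to 160.1 CPM in Pre-MET mice, while Retnlg spans 0 to 258.6 CPM in Mon_Fn1 and 0 to 295.7 CPM in lymphocytes.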

How the data were processed

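UMI counts per gene and cell were deposited by the authors as 148 plate matrices with an annotation of each cell. The submitters' processing notes name bcl2fastq 2.15.0.4. Per the study's methods, reads of SPID-seq plates were demultiplexed and aligned to mm10. Reads with several matches were left out, same-strand overlapping genes were merged, and cells under 500 UMIs were discarded. Cell labels are the authors', made by clustering. Per the same methods, the sort gate left out dead cells and doublets, and no doublet caller was run here. The 23425 annotated immune cells were used, without 595 cells labelled Erythrocytes, Outlier or Tumor, and no column was left unmapped.

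Counts were summed per mouse, tissue and label or lineage, and sums of 10 or more cells were kept (7421 to 918670 UMIs for neutrophils, 13639 to 1107442 for monocytes). CPM used all UMIs of the sum. Levels are compared across cells and tissues and not between genes. Tissues were compared with edgeR's quasi-likelihood test (4.0.16, R 4.3.3) with TMM scaling, filterByExpr and Benjamini-Hochberg adjustment over all genes tested, at an adjusted p of 0.05. Fits held only the groups compared, with no covariate. The authors tested pooled cells instead. DESeq2 (1.42.0), other scalings, filters, cell minimums of 5 and 20, cells of 1000 or more UMIs, a batch term and left-out mice were the alternatives. For the comparisons with Relapse-free lungs, plates with the CD45+ gate alone were a further one. No member was called in it, with 0 of 1479 genes called against Normal and 2 of 2359 against Distal normal tissue. Runs without Neut_Camp cells, over paired mice with no term for the mouse and some left-out mice were added after the data were seen. Mice stand for replicates in the comparisons between tissues. In the levels by label, n counts sums of a mouse and tissue, and several sums can share a mouse.

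Distal normal tissue and MET, and the MET Invasive margin and MET Core, pair by animal. Deviations from the group means correlated between samples of the same mouse with a median r of 0.15 (6 pairs) and 0.12 (4 pairs) in neutrophils, and 0.087 (13 pairs) and 0.12 (5 pairs) in monocytes.

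In the comparisons over a lineage all members tested are named, and within a label only some of them. Of the other lists, at most 4 called genes with the largest change per list and comparison are named, and the 5 genes most like Ngp and Retnlg among those of 20 or more CPM in a sum. List genes named by label were chosen after their values were seen. The 8 genes and the lists were chosen with earlier results of these data known. Cells were thinned to 500 UMIs with a fixed seed. Figures used matplotlib 3.10.9. The scripts were tested on simulated data.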

Additional observations from a re-analysis of the deposited data

Results flagged for a closer look

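Dixon's test at the 95% level was run on 65 sets of 4 to 10 sums, each of 1 gene in 1 group. In 14 of them the highest value was set apart from the rest. The rate of 1 in 20 of this test holds for independent, normally distributed values. These sets hold skewed values, zeros and genes read in the same cells, so the number that chance gives is not known. Among neutrophil sums, Camp stood apart in Distal normal tissue of mouse 28 (8190 CPM, from 1 cell) and in the MET Core of mouse 17 (4160 CPM, where 1 cell held 95.6% of the Camp UMIs). Ltf did so in the MET Core of mouse 17 (856.7 CPM) and at the MET Invasive margin of mouse 31 (2476 CPM, a sum of 12 cells). Retnlg at the margin of mouse 26 measured 24680 CPM, and the 3 other tissues of that mouse measured 18840 to 22650 CPM. Padi4 stood apart in Distal normal tissue of mouse 31 (1617 CPM, 11 cells), in MET of mouse 25 (743.6 CPM, 13 cells) and in the MET Core of mouse 36 (487.8 CPM, 17 cells). In monocytes, Lcn2 of Relapse-free mouse 35 measured 178.7 CPM.

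In the 5 sums of Neut_PMN-MDSC, the MET Core of mouse 17 stood apart for Ngp (25.7 CPM, 1 UMI), Camp (77.0 CPM, 3 UMIs) and Mmp8 (51.3 CPM, 2 UMIs). The other 4 sums were at 0 for these genes, and there any UMI at all is flagged. MET of mouse 31 stood apart for Lcn2 (508.1 CPM) and Retnlg (1161 CPM).

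The 336 cells labelled Erythrocytes, which no comparison used, held members above the highest lymphocyte sum. Retnlg measured 2922 CPM (1172 UMIs in 143 cells), Mmp9 388.9, Mmp8 376.4, Lcn2 291.7 and Padi4 29.9 CPM. In the same cells S100a8 measured 39360 CPM (289 cells) and S100a9 14480 CPM, Csf3r 593.3 and Cxcr2 471.2 CPM, beside Hba-a1 at 23100 CPM (331 cells). Their part in the member levels was not tested.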

How the results depend on the processing

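Of 360 recomputed values of the fold changes given, 7 turned in direction. Over all members tested, 62 of 662 did, of which 0 belonged to a call as designed. From Normal to Pre-MET, Lcn2 was at 0.0491 with no filter, at 1.84 without Neut_Camp cells, and between -0.83 and 2.67 with 1 mouse left out (2.67 without Normal mouse 2). From Normal to Relapse-free, Camp lay between -2.18 and 10.54 with 1 mouse left out. The highest value, without Normal mouse 2, sets Camp against a group at 0, so it depends on the prior count. From Distal normal tissue to MET, Mmp9 was at 0.11 with cells of 1000 or more UMIs. From margin to Core, Retnlg lay between -0.62 and 0.30 with 1 mouse left out, and without margin mouse 26 it was positive. From Pre-MET to Primary, Lcn2 lay between -8.23 and 0.13 with 1 mouse left out. The lowest, without Primary mouse 10, sets 1 Primary sum at 0 against 3, so it depends on the prior count and on the lone sum varying as the others do. The cause of these changes was not tested.

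The number of members called changed as follows. From Normal to Pre-MET in neutrophils it was 3 with no filter (Camp -3.69, Ngp -2.34, Retnlg 1.58, among 10 of 9147 genes called, where Camp and Ngp rest on 2 Neut_Camp cells of Normal mouse 2) and 0 to 1 with 1 mouse left out. From Normal to Relapse-free it was 0 to 3, the 3 being without Normal mouse 2 (5 of 3213 genes). From Relapse-free to Distal normal tissue it was 1 without Neut_Camp cells (Ngp, among 7 of 2356 genes), and 0 to 2 with 1 mouse left out as well. That label was made with Ngp among its genes, so this count supports nothing. From Pre-MET to Primary it was 1 without TMM (57 of 429 genes), 1 with RLE scaling (58 of 429), 0 with sums of 5 or more cells (19 of 319), and 0 to 3 with 1 mouse left out, the 3 with a lone Primary sum. In monocytes from Normal to Pre-MET it was 0 to 1. The comparisons within a label kept 0. Of the 8 genes, 7 were highest in Neut_Camp, and 8 with sums of 5 or more cells. Genes with a share of cells above lymphocytes in Mon_Fn1 were 3 after thinning and 4 without it.

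With the mouse as a replicate block, 0 members were called from Distal normal tissue to MET in neutrophils, in monocytes and within Neut_Lcn2 and Neut_Ptgs2, as without it. The same held from margin to Core in neutrophils, while in monocytes no member was tested there. Over all genes in monocytes, 79 of 1979 were called with the block from Distal normal tissue to MET and 54 of 1354 from margin to Core. Over the same pairs with no term for the mouse, a fit added after the data were seen, 26 and 5 were called. Over all sums, 28 of 2098 and 2 of 1025 were called. Of 96 recomputed levels by label, 7 moved by more than 1 SD, among them Ngp in Neut_Camp, at 34020 CPM with cells of 1000 or more UMIs, where 1 sum of 16 cells remained. In neutrophils, fits could not be made for Pre-MET to Primary as pairs (only mouse 10 has both), or with 20 cells, deeper cells or a batch term. Neither could those for both Normal comparisons of neutrophils with deeper cells or a batch term, Pre-MET to Distal normal tissue with a batch term, and the pairs within Neut_Ifit3. Neutrophil sums held as few as 7421 UMIs.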

Other observations

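Ltf was also read in T cells. Those of Primary tumors held 18, 0, 7 and 17 Ltf UMIs in mice 8, 9, 10 and 38 (158, 0, 21.9 and 37.7 CPM), while Ngp was at 0 UMIs there and Retnlg at 1, 2, 0 and 1. Elsewhere, T cells held 10 Ltf UMIs in the MET Core of mouse 17 (12.1 CPM), 5 and 4 in Relapse-free mice 11 and 7, 2 in MET of mouse 31, and 1 each in Pre-MET mouse 9 and at the margin of mouse 17, each beside Retnlg UMIs (3 to 91). Prtn3 and Elane, azurophil granule genes, were read at 69.0 and 21.8 CPM on average in Mon_Fn1 monocytes. No background level is given for them, so the values alone do not show that these cells express them.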
